A study of Homo sapiens with 30 samples.

Results

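The snoRNA host genes GAS5, SNHG1, SNHG5, SNHG6, SNHG7, SNHG8, SNHG12, SNHG15, SNHG16 and ZFAS1 were followed in 3 neuroblastoma cell lines after transfection of antisense oligonucleotides (ASOs). They were taken by name as a fixed list, and they are 10 of the 68608 genes with an Ensembl ID in any of the 3 deposited expression tables. All 10 were found in each table, and all 10 passed the filter on low values in each. No measured value entered the choice of a member, but the list was drawn up when earlier results of these data were known.

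IMR32, NGP and SK-N-BE(2)c are established lines grown from neuroblastoma, a tumour of the developing sympathetic nervous system. Cells had been lipofected with 100 nM of ASO1, ASO2 or ASO10, which all target the long non-coding RNA NESPR, or with a negative control ASO (NCA), so every group, the controls included, had received an oligonucleotide and lipid, and no untreated group was analysed here. IMR32 had ASO1, ASO2 and NCA with 4 libraries each, and NGP and SK-N-BE(2)c each had ASO2, ASO10 and NCA with 3 libraries each, which gives 30 libraries in 9 groups. Nothing in the labels says that replicates came from separate cultures, so a p-value measures only the spread between these libraries. Column names spell the control of replicate 1 differently from that of replicates 2 and 3 in NGP and SK-N-BE(2)c. Whether that spelling marks another control oligonucleotide is not settled by the labels, and values without each control library were therefore computed. The time between transfection and harvest is not given in the sources used here.

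Small nucleolar RNAs (snoRNAs) guide the chemical modification of ribosomal RNA, C/D box snoRNAs for methylation and H/ACA box snoRNAs for pseudouridylation. In vertebrates most are cut out of introns, so each is made together with a spliced host transcript. Non-coding hosts, the members among them, carry only short reading frames in their joined exons. When ribosomes translate such a frame and stop ahead of a later exon junction, the transcript is degraded by nonsense-mediated decay (NMD), and it accumulates when translation or NMD is blocked. Several hosts also begin with a run of pyrimidines like the 5′ terminal oligopyrimidine (TOP) tract, by which ribosomal protein mRNAs are controlled through the mTOR pathway. A stress that phosphorylates eIF2 lowers general translation and raises translation of ATF4, whose target genes, with those of CHOP (encoded by DDIT3), serve here as the readout of the stress state.

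Windows around the annotated start are shown for the 8 members that have one in the reference, because the letters at the start of a host are what relates it to TOP mRNAs. They were read from RefSeq on GRCh38.p14, cover 30 bases on each side of the start, and are written 5′ to 3′ on the transcribed strand. Capitals mark a run of at least 5 pyrimidines (C or T) that begins with C and starts within 10 bases of the annotated start, and GAS5 and SNHG1 have no such run.
SNHG5 (chr6:85678704-85678763, minus strand): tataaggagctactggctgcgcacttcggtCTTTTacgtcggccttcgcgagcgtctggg
ZFAS1 (chr20:49278612-49278671, plus strand): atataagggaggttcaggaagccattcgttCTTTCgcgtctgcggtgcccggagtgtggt
SNHG12 (chr1:28581844-28581903, minus strand): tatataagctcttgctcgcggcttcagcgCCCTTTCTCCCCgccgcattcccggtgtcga
SNHG8 (chr4:118278732-118278791, plus strand): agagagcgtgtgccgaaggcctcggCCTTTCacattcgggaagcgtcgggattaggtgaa
SNHG16 (chr17:76557734-76557793, plus strand): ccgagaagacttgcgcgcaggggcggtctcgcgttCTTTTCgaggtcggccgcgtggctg
SNHG7 (chr9:136728155-136728214, minus strand): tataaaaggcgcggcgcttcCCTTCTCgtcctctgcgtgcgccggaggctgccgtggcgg
GAS5 (chr1:173869016-173869075, minus strand): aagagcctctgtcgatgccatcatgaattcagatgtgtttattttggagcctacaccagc
SNHG1 (chr11:62855856-62855915, minus strand): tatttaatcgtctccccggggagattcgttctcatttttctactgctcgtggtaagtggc
Such a run was present in 6 of these 8 members (75%), in 9 of 15 other non-coding hosts with a window (60%), and in 33.5% of all 35116 promoter windows searched on the transcribed strand. The shares for TOP mRNAs (63 of 72) and coding hosts (24 of 36) are void, since under 80% of each list had a window. A match, or the lack of one, describes letters near the annotated start read here and says nothing of the start used in these cells. Whether GAS5 or SNHG1 begins with such a run in these cells was not tested. The run began at the annotated start itself in SNHG5 and ZFAS1. In SNHG7 it lay wholly before the annotated start, and in SNHG8 only its last base reached the start. The pyrimidines of SNHG7 also reach further ahead than its capitals, beyond the bases searched. The longest run was that of SNHG12, with 12 pyrimidines.

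The other feature tied to translation is the position of the stop codon. Only transcripts in the basic subset of GENCODE release 29 were read, so the counts do not cover every listed transcript. That subset gave 62 spliced transcripts of the 10 genes. Of these, 56 (90.3%) had an exon junction more than 50 bases after the stop codon of the frame opened by the first ATG. Among 16694 spliced transcripts of other long non-coding RNAs the share was 71%, with those lacking an ATG counted as having no such junction. The sets were not matched for exon number, which was 5 to 13 in GAS5 and 6 to 11 in SNHG1. The median frame held 34 codons in the members and 18 codons in the other transcripts. All 10 GAS5 transcripts and 11 of 12 SNHG1 transcripts of that subset had such a junction. These are properties of annotated transcripts, and transcripts of one gene share most of their sequence.

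Values are gene counts divided by a size factor, called normalized counts below. A gene was called when limma, fitted on log2(value + 1) over all libraries of a line, gave a Benjamini-Hochberg adjusted p under 0.05 over all tested genes. Fold changes are on that log2 scale, with their standard error (SE). Libraries held 9393587 to 15060356 recovered reads. The NESPR transcript could not be checked, because that name does not occur in the name tables used here. All 10 adrenergic markers (among them HAND2 and DBH, of the noradrenergic neuroblast state) were above the filter in each line. The filter was passed by 6 of 8 mesenchymal markers for IMR32, 4 for NGP and 3 for SK-N-BE(2)c, and YAP1 was at 0 in every NGP library. In bulk RNA, fewer cells of a type and less RNA per cell cannot be told apart.

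The 10 host genes rose with every NESPR-directed ASO, with 2 exceptions, both in IMR32 with ASO1. Over 60 pairs of gene and comparison with NCA, 58 were called higher, 0 were called lower and 2 were not called. All 60 estimates were above 0. The 58 called pairs were those whose ASO and NCA libraries did not overlap. The other 8 genes were called higher in all 6 comparisons, where SNHG15 and SNHG16 were called in 5 each. Median log2 changes were 0.38 with ASO1 and 0.40 with ASO2 in IMR32, 0.75 with ASO2 and 0.99 with ASO10 in NGP, and 0.60 with ASO2 and 0.87 with ASO10 in SK-N-BE(2)c. The medians over all tested genes lay between -0.03 and 0.01. The comparisons within a line share their control libraries, so they do not repeat each other independently.

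These counts stand against a background in which many genes were called. In IMR32, 8 of 10 members were called higher with ASO1 where 13.6% of all tested genes were, and 10 of 10 with ASO2 where 17.6% were. In NGP, 10 of 10 were called higher with ASO2 against 30.6% of all genes, and 10 of 10 with ASO10 against 26.8%. SK-N-BE(2)c gave 10 of 10 with ASO2 against 33.6%, and 10 of 10 with ASO10 against 27.8%. Called lower were 14.4% and 14.8% of all genes in IMR32, 28.1% and 27.6% in NGP, and 33.4% and 31.1% in SK-N-BE(2)c, and 0 members in each. Counted by libraries that do not overlap, the background for higher genes was 13.4% and 16.3% in IMR32, 32.4% and 28.6% in NGP, and 34.4% and 30.4% in SK-N-BE(2)c, in the same order of ASOs. For lower genes it was 14.2% and 14.1%, 30% and 30.5%, and 34.8% and 34.3%.

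As a share of all reads of a library, the 10 genes together took 0.0914% ± 0.002 (SD, n = 4) with NCA in IMR32, and 0.111% ± 0.006 with ASO1 and 0.112% ± 0.0081 with ASO2. NGP went from 0.15% ± 0.0053 (SD, n = 3) with NCA to 0.24% ± 0.012 with ASO2 and 0.284% ± 0.0038 with ASO10. SK-N-BE(2)c went from 0.177% ± 0.012 to 0.254% ± 0.0061 and 0.31% ± 0.015.

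**Figure D1:**
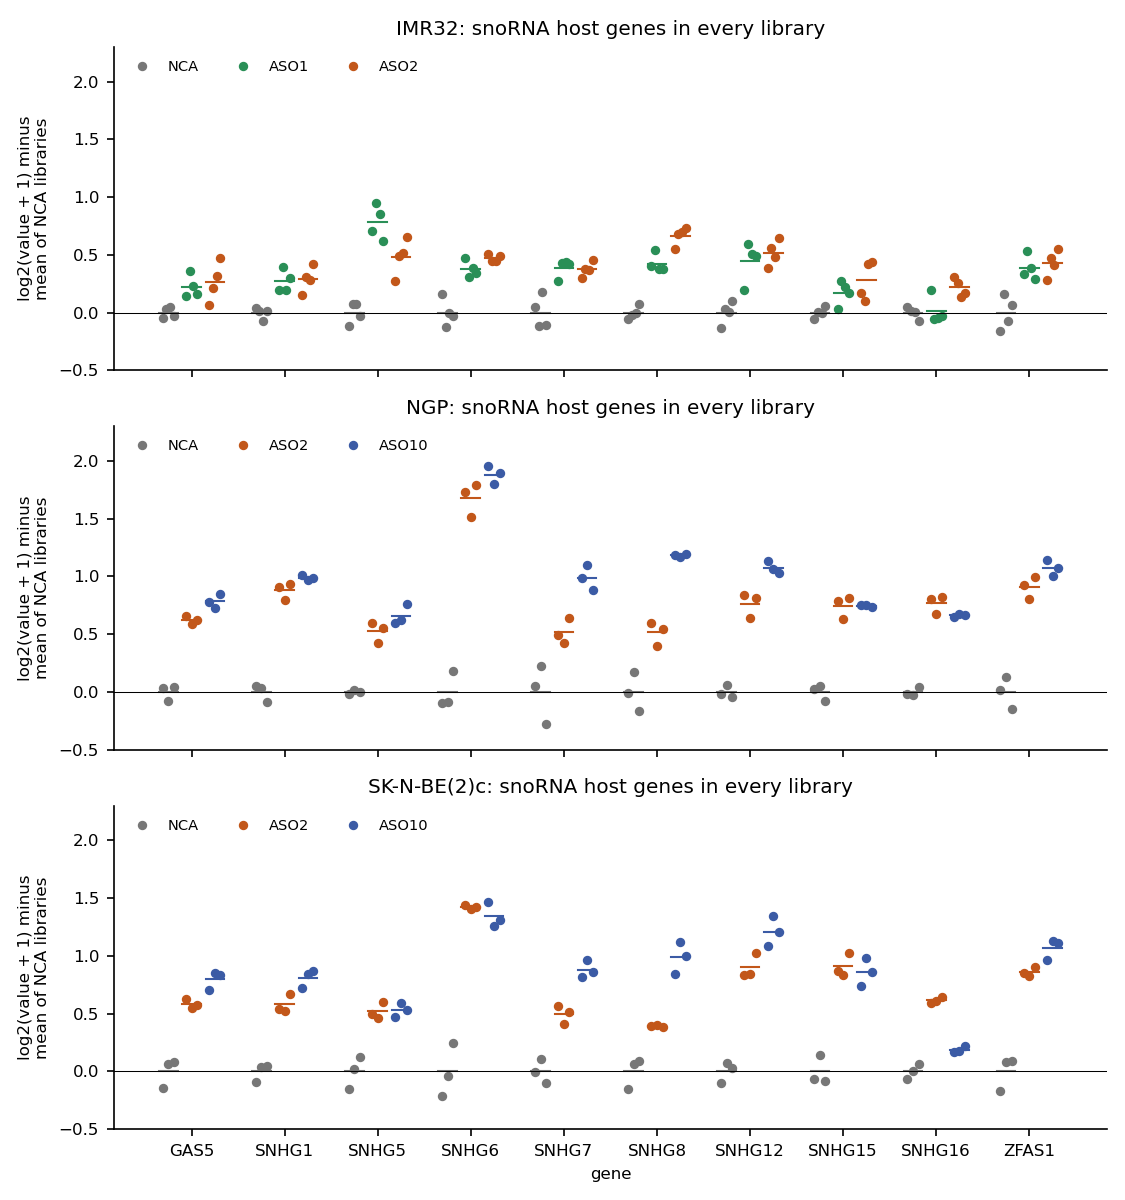
Each point is 1 library; the y axis gives log2(value + 1) minus the mean of the NCA libraries of that line, the x axis the gene, and short bars mark group means (n = 4 in IMR32, n = 3 in NGP and SK-N-BE(2)c). All NGP and SK-N-BE(2)c points of ASO2 and ASO10 lie above all NCA points of the same line and gene, and SNHG6 lies highest; in IMR32 ASO1 overlaps NCA for SNHG15 and SNHG16.

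Among the hosts of C/D box snoRNAs, SNHG6, the host of SNORD87 (ENSG00000245910), showed the largest change in NGP and SK-N-BE(2)c. Its normalized counts in NGP were 340.5, 342.9 and 412.3 with NCA, 1209, 1043 and 1266 with ASO2, and 1411, 1269 and 1356 with ASO10. The lowest treated library was thus far above the highest control. The log2 change was 1.68 with ASO2 (SE 0.083, limma adjusted p = 2.76e-14) and 1.88 with ASO10 (SE 0.083, adjusted p = 2.37e-15), or 3.21-fold and 3.69-fold. SK-N-BE(2)c gave 614.2, 693.7 and 845.2 with NCA, 1930, 1891 and 1908 with ASO2, and 1964, 1703 and 1769 with ASO10. There the log2 changes were 1.42 and 1.34. Of all tested genes, 0.859% had a larger log2 change with ASO2 in NGP, and 3.28% with ASO10. The shares were 1.72% and 4.37% in SK-N-BE(2)c, and 8.39% with ASO1 and 4.48% with ASO2 in IMR32. IMR32 gave smaller changes for SNHG6, 0.38 with ASO1 and 0.47 with ASO2, from 553.3, 452.7, 494.2 and 485.1 with NCA to 689, 613.4, 646.4 and 628.3 with ASO1 and 705.2, 673.3, 676.4 and 697.1 with ASO2. The groups did not overlap in that line either.

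GAS5 (ENSG00000234741), which hosts many C/D box snoRNAs and is named for its accumulation in growth-arrested cells, changed less than SNHG6 in each comparison. Its counts in NGP were 4646, 4317 and 4677 with NCA, 7150, 6827 and 7004 with ASO2, and 7815, 7531 and 8163 with ASO10. The log2 changes there were 0.62 with ASO2 and 0.79 with ASO10. SK-N-BE(2)c libraries held 6039, 6986 and 7067 with NCA, 10309, 9756 and 9974 with ASO2, and 10872, 12061 and 11944 with ASO10, which gave 0.58 and 0.80. Both lines therefore placed ASO10 above ASO2 and ASO2 above NCA without overlap. Its IMR32 counts were 3866, 4082, 4117 and 3909 with NCA, 4416, 5127, 4695 and 4456 with ASO1, and 4169, 4620, 4984 and 5529 with ASO2, so that the lowest ASO2 library stood just above the highest control. The GAS5 change there was 0.22 with ASO1 (adjusted p = 0.0153) and 0.27 with ASO2 (adjusted p = 0.00454). Without ASO1 replicate 2, which had the highest count of its group at 5127, the ASO1 change was 0.18 and was not called (adjusted p = 0.0649).

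SNHG1 (ENSG00000255717), once called the U22 host gene, rose by 0.88 with ASO2 and 0.99 with ASO10 in NGP. Its counts there were 4233, 4169 and 3851 with NCA, 7670, 7093 and 7810 with ASO2, and 8227, 8000 and 8076 with ASO10. In SK-N-BE(2)c the control level was lower, at 2440, 2673 and 2691, and counts rose to 3782, 3743 and 4145 with ASO2 (0.58) and 4284, 4666 and 4752 with ASO10 (0.81). The NGP and SK-N-BE(2)c tables were scaled jointly, so these levels can be set side by side. The IMR32 counts of SNHG1 were 1023, 1008, 951.1 and 1009 with NCA, 1145, 1314, 1142 and 1231 with ASO1 (0.27), and 1110, 1234, 1211 and 1332 with ASO2 (0.29).

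ZFAS1 (ENSG00000177410), the host of the SNORD12 family, rose by 0.91 and 1.07 in NGP and by 0.86 and 1.07 in SK-N-BE(2)c with ASO2 and ASO10. Its SK-N-BE(2)c counts were 2181, 2599 and 2607 with NCA, 4442, 4342 and 4600 with ASO2, and 4797, 5375 and 5315 with ASO10. With ASO10 that was 2.1-fold in each line. The NGP counts of ZFAS1 were 1348, 1451 and 1203 with NCA, 2535, 2323 and 2653 with ASO2, and 2935, 2676 and 2792 with ASO10. In IMR32 it went from 387, 483.6, 410.8 and 452.9 with NCA to 544.8, 624.7, 564 and 529.7 with ASO1 (0.39) and 525.4, 601.7, 575.8 and 634.2 with ASO2 (0.43). No treated ZFAS1 library in any line lay within the range of its controls.

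SNHG5 (ENSG00000203875), the host of U50 snoRNAs, had the largest change of the 10 in IMR32. With ASO1 its counts were 1225, 1447, 1356 and 1157, against 691.4, 789.5, 791.9 and 735.9 with NCA. The log2 change was 0.78 (SE 0.076, adjusted p = 2.06e-07), and 2.12% of all tested genes had a larger one. With ASO2 the counts were 909.6, 1057, 1076 and 1182 and the change was 0.49. The controls lay below both. In NGP and SK-N-BE(2)c SNHG5 rose by 0.52 to 0.66, with NGP counts of 1241, 1276 and 1255 with NCA, 1905, 1685 and 1849 with ASO2, and 1907, 1935 and 2135 with ASO10. The SK-N-BE(2)c counts of SNHG5 were 2028, 2291 and 2463 with NCA, 3182, 3109 and 3408 with ASO2, and 3114, 3389 and 3257 with ASO10, where the ASOs overlapped each other.

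SNHG16 (ENSG00000163597), the host of SNORD1 snoRNAs, departed most from the others. In IMR32 its counts were 2948, 2485, 2504 and 2527 with ASO1 and 2670, 2610, 2581 and 2458 with NCA, a difference of 0.02 (adjusted p = 0.854). ASO1 replicate 1 lay above the controls and the other libraries within their range. With ASO2 in the same line it rose by 0.22 (adjusted p = 0.00523). Its SK-N-BE(2)c counts were 1407, 1481 and 1538 with NCA, 2229, 2254 and 2307 with ASO2, but only 1653, 1669 and 1715 with ASO10. The 3 groups did not overlap, and the change was 0.62 with ASO2 and 0.19 with ASO10 (SE 0.056, adjusted p = 0.0056). With ASO10, 31.5% of all tested genes had a larger log2 change. In NGP, by contrast, SNHG16 held 1371, 1367 and 1437 with NCA, 2432, 2224 and 2454 with ASO2 (0.77), and 2186, 2219 and 2206 with ASO10 (0.66). There both ASOs stood far above the controls and close to each other.

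The hosts of H/ACA box snoRNAs were SNHG7 (ENSG00000233016, the SNORA17 group), SNHG8 (ENSG00000269893, SNORA24) and SNHG15 (ENSG00000232956, SNORA9), and SNHG12 (ENSG00000197989) carries both kinds. SNHG8 held 1165, 1319 and 1042 in NGP with NCA, 1775, 1545 and 1708 with ASO2, and 2660, 2636 and 2675 with ASO10. The groups formed 3 separate levels. The log2 change was 0.52 with ASO2 and 1.18 with ASO10. In SK-N-BE(2)c its counts were 1075, 1252 and 1274 with NCA, 1567, 1577 and 1558 with ASO2, and 2144, 2602 and 2397 with ASO10, with changes of 0.39 and 0.99. In IMR32 SNHG8 had the largest change of the members with ASO2, 0.66 (SE 0.059, adjusted p = 1.29e-07), against 0.43 with ASO1. Its IMR32 counts were 369.3, 378.7, 381.1 and 404.2 with NCA, 508.3, 557.2, 498.6 and 497.1 with ASO1, and 563.1, 613, 620.7 and 636.5 with ASO2, again in 3 levels without overlap.

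SNHG7 followed the same order, with 0.52 and 0.99 in NGP and 0.50 and 0.88 in SK-N-BE(2)c for ASO2 and ASO10. Its NGP controls were widely spread, at 1268, 1426 and 1010, but lay below all treated libraries, with 1717, 1638 and 1908 after ASO2 and 2419, 2627 and 2260 after ASO10. The SK-N-BE(2)c counts of SNHG7 were 2417, 2613 and 2263 with NCA, 3586, 3230 and 3461 with ASO2, and 4276, 4732 and 4413 with ASO10, again 3 separate levels. In IMR32 SNHG7 rose by 0.39 with ASO1 and 0.38 with ASO2. Its counts there were 291.4, 259, 318.5 and 260.9 with NCA, 340.4, 378.3, 381 and 377.6 with ASO1, and 346.5, 365.3, 363.8 and 387.4 with ASO2.

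SNHG12 rose by 0.76 and 1.07 in NGP and by 0.90 and 1.21 in SK-N-BE(2)c. The SK-N-BE(2)c counts went from 774.3, 872.1 and 843.3 with NCA to 1476, 1490 and 1689 with ASO2 and 1759, 2104 and 1909 with ASO10. Its NGP counts were 1356, 1435 and 1331 with NCA, 2454, 2145 and 2409 with ASO2, and 3012, 2874 and 2798 with ASO10. Each step, from NCA to ASO2 and from ASO2 to ASO10, was without overlap in both lines. SNHG12 in IMR32 rose by 0.45 with ASO1 and 0.52 with ASO2, from 278.4, 312.1, 306.4 and 328 with NCA to 350.4, 462.1, 436 and 429.4, and 400.8, 450.1, 427.6 and 477.7.

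SNHG15 rose by the same 0.75 with both ASOs in NGP, and by 0.91 and 0.86 in SK-N-BE(2)c. Its NGP counts were 1633, 1664 and 1525 with NCA, 2781, 2484 and 2831 with ASO2, and 2716, 2705 and 2672 with ASO10. The SK-N-BE(2)c counts of SNHG15 were 1278, 1477 and 1264 with NCA, 2435, 2381 and 2721 with ASO2, and 2233, 2632 and 2423 with ASO10. The ASOs overlapped each other in both lines and lay far above the controls. In IMR32 its ASO1 counts of 407, 482.6, 467.3 and 448.6 overlapped the controls at 384.6, 400.9, 397.6 and 415.2, and the difference of 0.17 was not called (adjusted p = 0.0945). Without ASO1 replicate 1 it was 0.22 and was called (adjusted p = 0.0309).

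**Figure D2:**
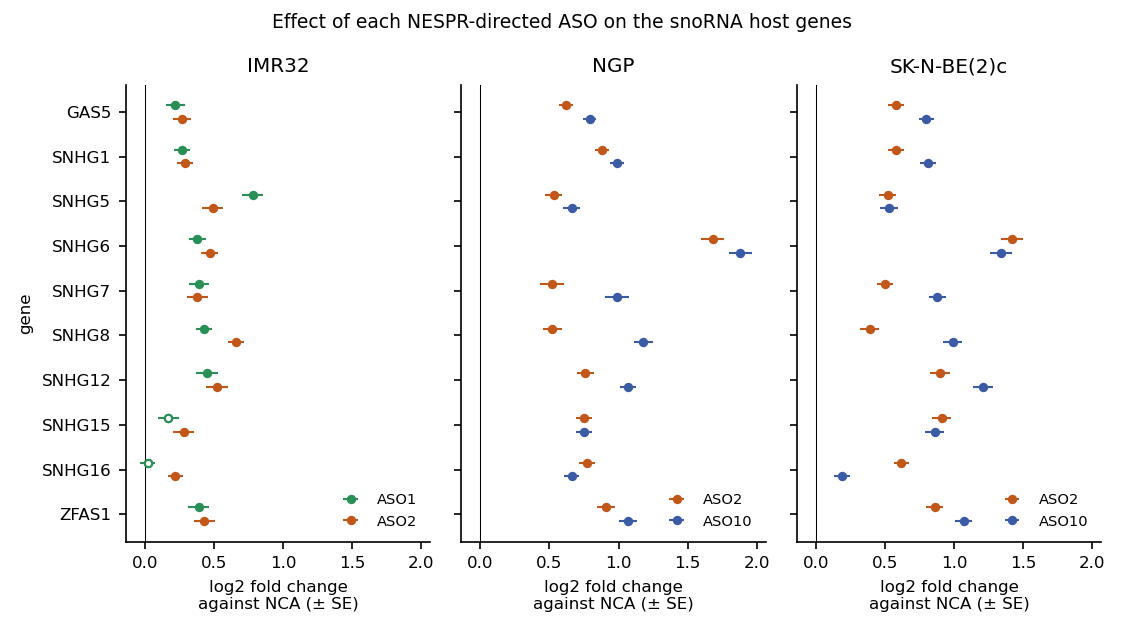
The x axis gives the log2 fold change of each gene (y axis) against NCA of its line, with bars of 1 standard error; green, orange and blue stand for ASO1, ASO2 and ASO10, and open points were not called. SNHG6 lies furthest right in NGP and SK-N-BE(2)c (1.34 to 1.88), and SNHG16 lies near 0 with ASO1 in IMR32 (0.02).

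Setting the ASOs of a line against each other asks whether the hosts moved equally with both. In NGP 6 members were lower with ASO2 than with ASO10 (GAS5, SNHG6, SNHG7, SNHG8, SNHG12 and ZFAS1) and 0 were higher by limma (SNHG16 alone was above 0, at 0.10, adjusted p = 0.114, and 0.15 and called without ASO2 replicate 2), where 28% and 30.6% of all genes were called lower and higher. SK-N-BE(2)c also gave 6 lower (GAS5, SNHG1, SNHG7, SNHG8, SNHG12 and ZFAS1), and 1 higher, SNHG16, against 30.8% and 34.6% of all genes. SNHG8 differed most, by -0.67 in NGP (SE 0.070, adjusted p = 1.14e-08) and by -0.60 in SK-N-BE(2)c (SE 0.069, adjusted p = 1.57e-08). SNHG16 was 0.43 higher with ASO2 in SK-N-BE(2)c (SE 0.056, adjusted p = 1.31e-07). Some of the NGP calls depended on the setting: SNHG6 at -0.20 and ZFAS1 at -0.16 were not called with no filter, or without ASO2 replicate 1 or 2 or ASO10 replicate 1 or 3. SNHG1 at -0.11 and SNHG5 at -0.14, not called in limma, were called lower after rescaling, with TMM factors, by edgeR, by DESeq2 and with only these groups in the fit. In IMR32 1 member was higher with ASO1 than with ASO2 (SNHG5, 0.30) and 2 were lower (SNHG8, -0.24, and SNHG16, -0.20), against 9.17% and 12.8% of all genes. SNHG16 was not called there without ASO1 replicate 2 or 3, with a value of -0.18 in each case. Libraries of the ASOs did not overlap for 1 member in IMR32, SNHG8, for 9 in NGP (all but SNHG15) and for 7 in SK-N-BE(2)c. Over all genes, those higher without overlap were 9.15%, 34.1% and 36.1%, and those lower 11.9%, 31% and 32%.

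Whether an ASO acted differently in NGP and SK-N-BE(2)c was tested as a difference of effects over their 18 libraries. With ASO2, 1 of 10 members differed, SNHG1, whose effect was smaller in SK-N-BE(2)c (-0.30, SE 0.077, adjusted p = 0.00936). Over all genes 7.95% were called lower and 8.79% higher. With ASO10, 2 of 10 differed: SNHG6 (-0.54, SE 0.13, adjusted p = 0.00696) and SNHG16 (-0.48, SE 0.069, adjusted p = 5.66e-05). Over all genes 8.78% were called lower and 8.09% higher. The other 17 of 20 differences were not called and ran from -0.26 to 0.16. IMR32 was scaled on its own by the authors, and its effects were not tested against those of the other lines.

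**Figure D3:**
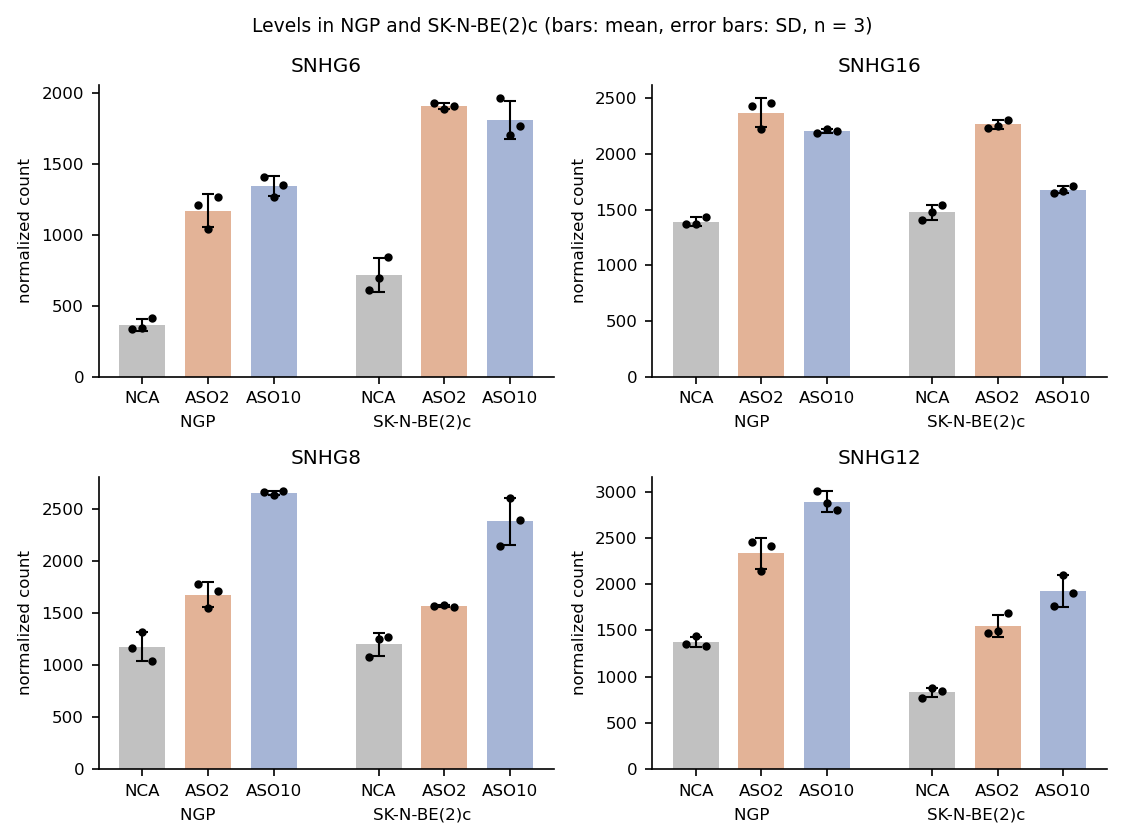
Normalized counts (y axis, from 0) of 4 host genes by ASO (x axis) in NGP and SK-N-BE(2)c; bars give the mean, error bars the SD and points the 3 libraries. SNHG8 and SNHG12 stand higher with ASO10 than with ASO2 in both lines, and SNHG16 with ASO10 in SK-N-BE(2)c (1653 to 1715) lies far below its ASO2 level (2229 to 2307).

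The stress state was read from 29 tested genes of the ATF4 and CHOP response, which include both factors and their targets. In NGP 26 of 29 were higher and 2 lower with ASO2 (median 0.77), and 27 higher and 0 lower with ASO10 (0.65). SK-N-BE(2)c gave 24 higher and 4 lower with ASO2 (0.61), and 27 higher and 1 lower with ASO10 (0.70). In IMR32 the list was split, with 6 higher and 6 lower with ASO1 (median -0.09) and 7 higher and 10 lower with ASO2 (-0.14). The host genes had thus been called higher both where this list was mostly called higher and where it was split. Whether the list moved differently in IMR32 was not tested, because of the separate scaling.

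Single genes of that list did not all follow its count. ATF4 rose by 0.48 to 0.85 in the comparisons of NGP and SK-N-BE(2)c, and ASNS, the asparagine synthetase gene that ATF4 activates, by 0.53 to 0.89. TRIB3, a pseudokinase induced by ATF4 and CHOP, rose by 0.82 to 1.60 there, and in IMR32 by 0.32 with ASO2 (adjusted p = 0.0106), with 0.09 for ASO1 (adjusted p = 0.523). In IMR32 ASNS did not pass the test, with -0.18 for ASO1 (adjusted p = 0.358) and -0.30 for ASO2 (adjusted p = 0.0931), the latter called lower without ASO1 replicate 4 or ASO2 replicate 3. ASNS counts there averaged 262.1 ± 34.8 with NCA, 235.3 ± 52.9 with ASO1 and 212.7 ± 27.1 with ASO2 (SD, n = 4), and the groups overlapped. ATF4 in IMR32 was called with ASO1 (0.29, adjusted p = 0.0101) and not with ASO2 (0.13, adjusted p = 0.252). Without NCA replicate 4 the ASO1 call was lost (0.23, adjusted p = 0.0523), and without NCA replicate 1 ASO2 gained one (0.22, adjusted p = 0.0253). DDIT3 rose in IMR32 by 0.98 and 1.00, from 101 ± 12.2 to 201 ± 27.7 and 202.9 ± 19.1 (SD, n = 4). PPP1R15A, which directs the phosphatase that reverses eIF2 phosphorylation, rose there by 1.70 and 1.32. In NGP DDIT3 was not called with ASO2 (0.11, adjusted p = 0.286, but 0.21 and called without NCA replicate 2) and rose by 0.56 with ASO10. In SK-N-BE(2)c it rose by 0.22 and 0.80, and the ASO2 call was lost without ASO2 replicate 1 or 3 or NCA replicate 1, and at 0.08 with all libraries rescaled to the same total.

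**Figure D4:**
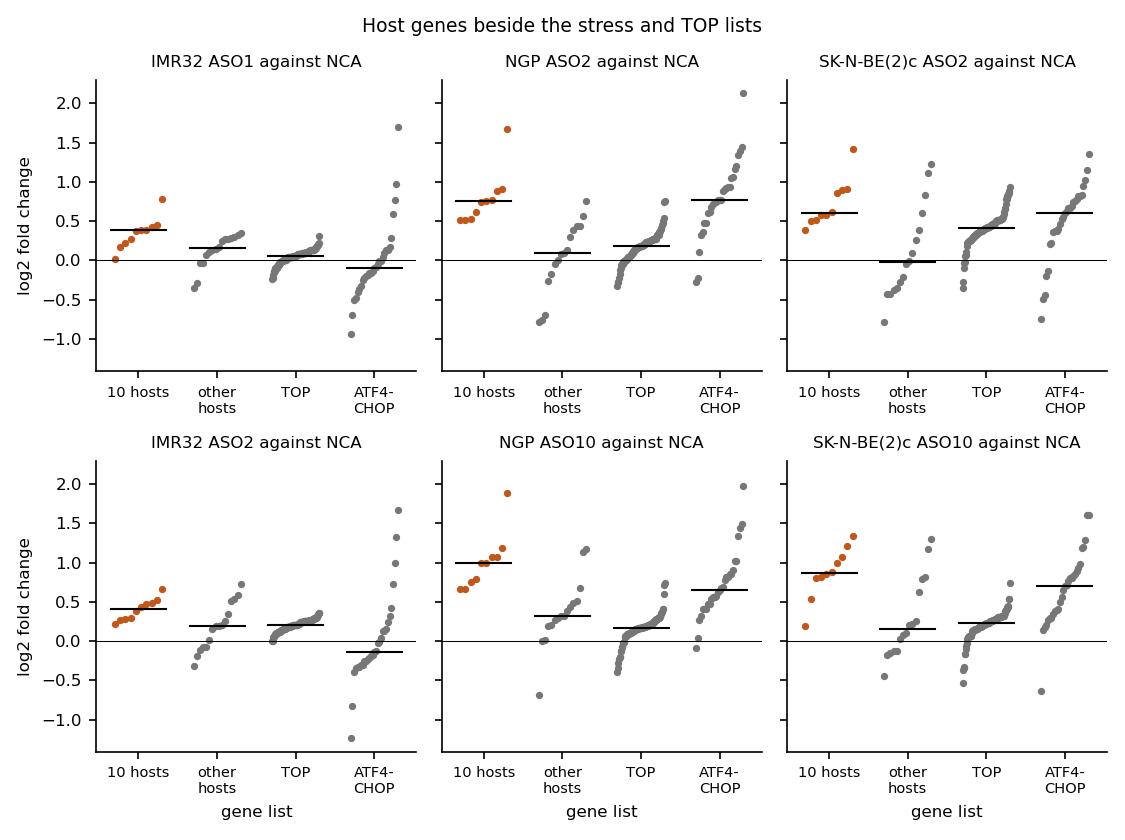
Each point is a gene, placed by its log2 fold change against NCA (y axis) within its list (x axis), in 6 panels, one per comparison; black lines are list medians, orange marks the 10 host genes. The host genes lie at or above 0 in all panels, while the ATF4-CHOP list has its median at -0.09 and -0.14 in IMR32 and between 0.61 and 0.77 in the other lines.

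Of 15 genes of the unfolded protein response in the endoplasmic reticulum, 6 were higher and 0 lower with ASO1 and 9 and 0 with ASO2 in IMR32, 10 and 2 with ASO2 and 6 and 2 with ASO10 in NGP, and 7 and 1 (4 and 2 when rescaled), and 6 and 5, in SK-N-BE(2)c. Of 15 genes of the eIF2 pathway, 4 were higher and 2 lower with ASO1 and 7 and 1 with ASO2 in IMR32 (4 higher when rescaled). NGP gave 7 and 6 with ASO2 and 5 and 4 with ASO10, and SK-N-BE(2)c 7 and 5, and 8 and 3. The eIF2 list thus held calls in both directions in each comparison, as did all tested genes. Of those, 13.6% to 33.6% were called higher and 14.4% to 33.4% lower against NCA.

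Genes of the decay pathway and its mRNA targets were listed beside the hosts. Of all tested genes, 13.6% were called higher and 14.4% lower with ASO1 in IMR32, and 17.6% and 14.8% with ASO2. NGP had 30.6% and 28.1% with ASO2, and 26.8% and 27.6% with ASO10. The SK-N-BE(2)c shares were 33.6% and 33.4% with ASO2, and 27.8% and 31.1% with ASO10. They are the background of the later lists too. Of 18 NMD factors, 6 were higher and 2 lower with ASO1 and 8 higher and 1 lower with ASO2 in IMR32. In NGP 17 were tested, with 6 higher and 5 lower with ASO2 and 9 higher and 2 lower with ASO10, and in SK-N-BE(2)c 16, with 9 and 6, and 11 and 2. UPF1, the central helicase of NMD, rose by 0.37 and 0.21 in IMR32, by 0.22 with ASO10 in NGP and by 0.44 with ASO10 in SK-N-BE(2)c. It was not called with ASO2 in NGP (-0.07, adjusted p = 0.38, but -0.15 and called without NCA replicate 3) or SK-N-BE(2)c (0.02, adjusted p = 0.823). SMG1, the kinase of UPF1, rose by 0.89 and 0.72 with ASO2 in those lines, while with ASO10 it stood at 0.10 (not called, but 0.16 and called without NCA replicate 3) and fell by 0.34. NBAS, an NMD factor with another role in vesicle transport, was lower in every comparison, by 0.34 to 1.46 on the log2 scale. NBAS averaged 72661 ± 718 normalized counts in the IMR32 controls (SD, n = 4). It averaged 1422 ± 175 in those of NGP and 751.5 ± 11.5 in those of SK-N-BE(2)c (SD, n = 3). IMR32 was scaled apart from the other lines, so its level was not tested against theirs, and the cause of the difference was not tested.

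Most of the mRNAs listed as NMD targets were called higher in NGP and SK-N-BE(2)c. In NGP the count was 12 of 14 higher with ASO2 and 11 with ASO10, in SK-N-BE(2)c 12 and 10, with 1 lower in each. In IMR32 7 of 13 were higher and 1 lower with ASO1, and 5 and 0 with ASO2. GADD45A, a stress gene whose mRNA is a well-studied NMD target, rose in all 6 comparisons. In IMR32 it went from 898.9 ± 31.2 with NCA to 1588 ± 96.8 with ASO1 (0.82) and 1392 ± 58.9 with ASO2 (0.63) (SD, n = 4). In NGP it rose by 0.83 and 1.00. ATF4 is in this list as well as in the stress list.

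TOP mRNAs, which encode ribosomal proteins and translation factors, had a lower median change than the 10 hosts in each comparison. Of 91 tested in NGP, 57 were higher and 5 lower with ASO2 (median 0.18) and 59 and 4 with ASO10 (0.17). The counts in SK-N-BE(2)c were 83 and 2 with ASO2 (0.42) and 67 and 5 with ASO10 (0.23). In IMR32 6 of 92 were higher and 2 lower with ASO1 (0.06), and 61 and 0 with ASO2 (0.21). The ASO1 count depended on the fit: 19 were higher with all libraries rescaled to the same total. EEF1D, a translation elongation factor subunit, rose by 0.60 to 0.93 in NGP and SK-N-BE(2)c. Of genes that regulate TOP mRNAs, RPTOR, the scaffold of mTOR complex 1, was lower with ASO2 in each line (-0.34 for IMR32, -1.13 for NGP and -1.14 for SK-N-BE(2)c). Of all 12 such regulators, 1 was higher and 4 lower with ASO1 and 1 and 3 with ASO2 in IMR32, 4 and 6 with ASO2 and 5 and 4 with ASO10 in NGP, and 4 and 8, and 4 and 4, in SK-N-BE(2)c.

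Protein-coding hosts of snoRNAs and further non-coding hosts allowed the members to be set beside other hosts. Most of the coding hosts, ribosomal protein genes above all, are also in the TOP list, so the counts of these lists are not independent. Of 46 coding hosts, 28 were higher and 3 lower with ASO2 and 29 and 4 with ASO10 in NGP, with medians of 0.19 and 0.16. SK-N-BE(2)c gave 40 and 1 with ASO2 (0.41) and 30 and 5 with ASO10 (0.18), and IMR32 9 and 0 with ASO1 (0.08) and 28 and 0 with ASO2 (0.21). Rescaled to the same total, 15 were higher and 1 lower with ASO1 in IMR32. EIF4G2, a translation factor and host, fell with ASO10, by 1.35 in NGP and by 1.23 in SK-N-BE(2)c. Among 16 tested non-coding hosts outside the 10, 6 were higher and 4 lower with ASO2 in NGP, and equally many with ASO2 in SK-N-BE(2)c. With ASO10, 11 were higher and 1 lower in NGP, and 6 and 2 in SK-N-BE(2)c. IMR32 had 5 higher and 2 lower with ASO1 and 7 and 2 with ASO2. Their medians, from -0.02 to 0.32, lay below the members' median in all 6 comparisons.

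EPB41L4A-AS1, the host of SNORA13, rose in all 6 comparisons (0.27 and 0.34 in IMR32, 0.57 and 1.13 in NGP, then 0.84 and 1.30 in SK-N-BE(2)c). SNHG32 also rose in all 6 (with ASO1 in IMR32 not without NCA replicate 1), by 1.17 with ASO10 in either line that had it, and by 0.30 and 0.60 with ASO2 there. SNHG14, the long imprinted transcript that carries the SNORD115 and SNORD116 clusters, was lower with ASO2 in each line (-0.19, -0.78 and -0.78, in the order IMR32, NGP, SK-N-BE(2)c), and 0.32 higher with ASO10 in NGP.

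The members' own snoRNAs were nearly unmeasured. GENCODE 29 places 26 snoRNA genes inside 9 of the 10 members, and 5 of them had a read in any library: SNORD99 in SNHG12, SNORD1B in SNHG16, and SNORD12, SNORD12B and SNORD12C in ZFAS1. The IMR32 table lists all 26, and the NGP and SK-N-BE(2)c tables list 6 of them. The member without a nested snoRNA gene by this search was GAS5. By symbol, SNORD79 and SNORD81 of GAS5 and SNORD27, SNORD29 and SNORD30 of SNHG1 stood in every table under Ensembl IDs outside the 26. None of these passed the filter in any line. SNORD12 in NGP averaged 33.4 ± 6.71 normalized counts with NCA, 50.3 ± 6.43 with ASO2 and 26 ± 3.88 with ASO10 (SD, n = 3). The SK-N-BE(2)c means were 25.4 ± 1.19, 43.5 ± 1.97 and 19 ± 6.11. It was higher with ASO2 than with ASO10 by 0.93 in NGP (SE 0.23, adjusted p = 0.00141) and by 1.20 in SK-N-BE(2)c (SE 0.27, adjusted p = 0.000362), while its host ZFAS1 was lower with ASO2 than with ASO10 in both lines (-0.16 and -0.21). Against NCA, SNORD12 was called higher with ASO2 (0.59 and 0.75), but in NGP the call was lost with DESeq2 (adjusted p = 0.0639) and without ASO2 replicate 1 or 3 or NCA replicate 1 or 2. In SK-N-BE(2)c SNORD12B was also called higher with ASO2 (1.00, adjusted p = 0.0159) and not with ASO10 (-0.30, adjusted p = 0.489), and the ASO2 call was lost without ASO2 replicate 1 or NCA replicate 2. It was not called against NCA in NGP (0.38 and 0.60, the latter called at 0.80 without NCA replicate 2). Between ASO2 and ASO10, SNORD12B was called higher with ASO2 in SK-N-BE(2)c (1.30) and not called in NGP (-0.22). SNORD12C, tested in IMR32, was called higher with ASO2 (0.49, adjusted p = 0.0189) and not with ASO1 (0.35, adjusted p = 0.0973), and the call was lost without ASO2 replicate 4 or NCA replicate 1. SNORD99 averaged 24.4 to 84.3 over the 9 groups. It was not called against NCA in any comparison, with values from -0.36 to 0.54 (the highest was called, at 0.48, with a pseudocount of 5), while its host SNHG12 was called higher in all 6. The SNORD99 estimates had an SE of 0.21 to 0.25, and those in NGP and SK-N-BE(2)c were all below the 0.76 to 1.21 of SNHG12. Between ASO2 and ASO10, SNORD99 was called higher with ASO2 in SK-N-BE(2)c (0.61), where SNHG12 was lower (-0.31). It was not called between them in NGP (0.02), nor between ASO1 and ASO2 in IMR32 (0.43). Whether snoRNA and host differed was not tested.

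Genes that overlap or face a member were checked, because the sources used here do not say whether counting used strand. SLC3A2, which encodes a subunit of amino acid transporters and is an ATF4 target, starts 188 bases from SNHG1 on the other strand. It rose by 1.05 and 0.85 in NGP and 1.35 and 1.19 in SK-N-BE(2)c with ASO2 and ASO10. In IMR32 SLC3A2 was at 0.14 with ASO1 (adjusted p = 0.0285) and 0.04 with ASO2 (adjusted p = 0.593), where SNHG1 rose by 0.27 and 0.29. The ASO1 call of SLC3A2 was lost without any one of ASO1 replicates 2 and 3 and NCA replicates 2, 3 and 4. TRNAU1AP overlaps SNHG12. With ASO10 it rose by 1.85 in NGP and by 1.21 in SK-N-BE(2)c, and with ASO2 by 0.55 in NGP, with -0.0034 in SK-N-BE(2)c (adjusted p = 0.979), where SNHG12 rose by 0.90. ZNFX1, which overlaps ZFAS1 from a start 248 bases away, rose in all 6 comparisons, by 0.19 to 0.70, though the ASO1 call in IMR32 was lost without ASO1 replicate 3 or NCA replicate 1. ZBTB37, which overlaps GAS5, was lower in IMR32 (-0.20 and -0.25) and higher in NGP (0.48 and 0.72), lines in which GAS5 rose. The part of these neighbours in the members' values was not tested.

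The genes most like the members over the 30 libraries were found by correlation of log2(value + 1), centred within each line, with the mean of the 10. Over 11594 genes tested in all lines these were NOP56 (r = 0.963), ZNF627 (0.962), RNF168 (0.957), UTP14A (0.951) and ADM5 (0.948), given as a description, since libraries share their groups. NOP56 is a core protein of C/D box snoRNPs and hosts snoRNAs in its own introns, and UTP14A acts in processing of the small ribosomal subunit. NOP56 rose by 0.50 to 0.66 in NGP and SK-N-BE(2)c and stood at 0.09 and 0.14 in IMR32, the first of which was not called. Rescaled to the same total, the second was not called either (0.11). Of the 8 core snoRNP genes on its list, 1 was higher with ASO1 (3 when rescaled) and 4 with ASO2 in IMR32, 4 and 3 in NGP with ASO2 and ASO10, and 6 and 2 in SK-N-BE(2)c. Lower were 0 and 0, 0 and 2, and 1 and 2. ADM5 had the largest changes of the 5, from 0.60 with ASO2 in IMR32 to 2.61 with ASO10 in SK-N-BE(2)c. Each member's correlation with the mean of the other 9 ran from 0.732 in SNHG16 and 0.838 in SNHG5 to 0.985 in ZFAS1.

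Marker genes of the neuroblastoma cell state were counted beside the hosts. In IMR32, 13.6% of all tested genes were called higher and 14.4% lower with ASO1, and 17.6% and 14.8% with ASO2. The shares in NGP were 30.6% and 28.1% with ASO2, and 26.8% and 27.6% with ASO10. SK-N-BE(2)c had 33.6% and 33.4% with ASO2, and 27.8% and 31.1% with ASO10. Of 10 adrenergic markers 6 were lower and 2 higher with ASO2 and 8 lower and 0 higher with ASO10 in NGP, and 5 lower and 4 higher, and 7 lower and 0 higher, in SK-N-BE(2)c. IMR32 had 3 lower and 2 higher with ASO1, and 4 and 1 with ASO2. Their summed normalized count ran from 52203 to 54993 with NCA in NGP, from 47393 to 49102 with ASO2 and from 42306 to 44744 with ASO10. The SK-N-BE(2)c ranges were 58452 to 65158, 57364 to 59763 and 53142 to 54065, and in IMR32 31170 to 32607 with NCA, 29555 to 32162 with ASO1 and 28593 to 30464 with ASO2. Of the mesenchymal markers tested, 0 of 6 were called with ASO1 and 2 higher with ASO2 in IMR32. NGP had 3 of 4 higher and 1 lower with ASO2 and 1 higher and 1 lower with ASO10, and SK-N-BE(2)c 2 of 3 higher and 1 lower, and 1 higher and 0 lower (median -0.45 with ASO10). The summed mesenchymal markers lay above the control range in each line except for ASO1 in IMR32 (3144 to 3623 with NCA, 3330 to 3824 with ASO1), and VIM, an intermediate filament gene that adrenergic cells also express, made up most of that sum. The part of these shifts in the members' values was not tested.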

How the data were processed

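RNA sequencing of 30 libraries was used as deposited in 3 tables, 1 per cell line, of normalized gene signal. These signal values are gene counts divided by a size factor per library, made by the authors before the tables were deposited, as the column values show: with 1 size factor per library, 100% of values came out as whole reads (tolerance 0.01). The submitters' processing notes name FastQC 0.11.8, cutadapt 1.18, STAR 2.6.0, HTSeq 0.6.1, DESeq2 1.42.0 and the builds hg19 and GRCh37. The annotation, the strand setting of counting, the treatment of duplicates and the kit of each library (the labels name a stranded total RNA kit and a stranded mRNA kit) are not given in the sources used here. IMR32 was scaled on its own, and NGP together with SK-N-BE(2)c, judged by the median ratios of the values.

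Symbols were matched for 99.9% of IDs in IMR32 and 89.8% in the other tables. In IMR32, 174 entries without an Ensembl ID (0.172% of all values) were left out. Columns were mapped to samples by name, and 0 were left unmapped. Genes with a mean of at least 10 were tested with limma 3.58.1 (R 4.3.3) on log2(value + 1), with all groups of a line in the fit, a mean-variance trend and Benjamini-Hochberg adjustment over all tested genes (17309 in IMR32, 14440 in NGP, 13556 in SK-N-BE(2)c, and 14537 in the joint fit for differences between lines). The scripts were tested on simulated data. Alternatives were a pseudocount of 5, no filter, libraries rescaled to the same total, TMM factors, edgeR 4.0.16 and DESeq2 1.42.0 on recovered reads, the replicate number as a block, fits of the groups compared alone, and each library left out.

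The members and lists were chosen with earlier results of these data known. Besides the members, the text names from each list at most 4 genes per comparison, those with the smallest adjusted p among the called, and always ATF4, DDIT3, ASNS, TRIB3, UPF1 and SMG1. Neighbours and nested snoRNAs of members came from GENCODE 29, and VIM and YAP1 were named after their values were seen. Reading frames were taken from GENCODE 29 transcripts tagged basic whose exon lengths summed to the sequence length, and start windows from RefSeq on GRCh38.p14. SNHG6 and SNHG15 had no window.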

Additional observations from a re-analysis of the deposited data

Results flagged for a closer look

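In IMR32, where groups hold 4 libraries, 2 of 30 groups of a member had a library far from the other 3 by Dixon's criterion (critical value 0.829), and chance gives about 1 in 20. The SNHG7 count of 340.4 in ASO1 replicate 1 lay below 377.6 to 381 in the other libraries of its group. The SNHG16 count of 2948 in ASO1 replicate 1 lay above 2485 to 2527. Both came from the same library.

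Of 20 differences between the effects of an ASO in SK-N-BE(2)c and NGP, 3 were called by limma. Over all genes 8.79% were called higher and 7.95% lower for ASO2, and 8.09% and 8.78% for ASO10, so the members' share is near the background. They were SNHG1 with ASO2 (-0.30), SNHG6 with ASO10 (-0.54) and SNHG16 with ASO10 (-0.48), each smaller in SK-N-BE(2)c. Cell line and any difference in handling between the lines cannot be told apart.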

How the results depend on the processing

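Of 1080 alternative values of single members against NCA, 1077 kept their call and 1078 were positive. Rescaling to the same total gave members' medians of 0.40 (IMR32, ASO1), 0.37 (IMR32, ASO2), 0.68 (NGP, ASO2) and 0.46 (SK-N-BE(2)c, ASO2) against NCA. For ASO1 against ASO2 in IMR32 it gave 0.00, and for ASO2 against ASO10 -0.22 in NGP, with -0.32 in SK-N-BE(2)c. It called 2 rather than 1 members lower for the ASO2 effect in SK-N-BE(2)c minus NGP. It also moved the share of all calls that were higher from 50.2% to 38.4% (SK-N-BE(2)c, ASO2 against NCA, median of all genes from -0.02 to -0.15), from 52.9% to 42.3% (SK-N-BE(2)c, ASO2 against ASO10), from 41.8% to 59.8% (IMR32, ASO1 against ASO2) and from 52.5% to 32.9% (ASO2 effect in SK-N-BE(2)c minus NGP). On recovered reads (100% whole) edgeR called 4897 and 5630 genes in IMR32, 8495 and 7928 in NGP, and 9080 and 8073 in SK-N-BE(2)c against NCA, where limma called 4850 and 5607, 8477 and 7850, and 9078 and 7981.

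Without single libraries, members called higher against NCA were 7 to 9 (IMR32, ASO1) and 10 in the other comparisons. Their medians were 0.34 to 0.38 and 0.37 to 0.43 (IMR32, ASO1 and ASO2), 0.72 to 0.81 and 0.90 to 1.05 (NGP, ASO2 and ASO10), and 0.56 to 0.64 and 0.82 to 0.93 (SK-N-BE(2)c). For ASO1 against ASO2 in IMR32 they gave 1 higher, 1 to 2 lower and medians of -0.10 to -0.02. ASO2 against ASO10 gave 0 to 1 higher, 4 to 8 lower and -0.19 to -0.11 in NGP, and 1 higher, 6 lower and -0.26 to -0.18 in SK-N-BE(2)c. SK-N-BE(2)c minus NGP gave 1 lower and -0.12 to -0.01 for ASO2, and 2 lower and -0.17 to -0.06 for ASO10. The ATF4-CHOP list ran from 4 to 8 higher and 5 to 9 lower (IMR32, ASO1), 6 to 10 and 4 to 12 (IMR32, ASO2), 26 to 27 and 1 to 2 (NGP, ASO2), 27 and 0 (NGP, ASO10), 23 to 24 and 4 to 5 (SK-N-BE(2)c, ASO2), and 25 to 28 and 1 (SK-N-BE(2)c, ASO10).

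In no pair of groups did the deviations of all same-numbered replicates correlate above 0.1 (0.318, 0.055, 0.116 and 0.0553 for ASO1 and NCA in IMR32). For ASO1 with NCA, ASO2 with NCA and ASO1 with ASO2, IMR32 replicate 1 gave 0.318, 0.261 and 0.332. Replicate 3 gave 0.116, 0.112 and 0.163. Whether same-numbered libraries shared a culture or handling is not given in the labels, and the main fit did not use the number. With the number as a block, SNHG15 was called with ASO1 in IMR32 (0.17, limma adjusted p = 0.0179), 11 rather than 6 genes of the ATF4-CHOP list were called lower there, and 33 rather than 6 TOP mRNAs, 24 rather than 9 coding hosts and 4 rather than 1 core snoRNP genes higher. With ASO2 in IMR32 it called 11 rather than 5 NMD target mRNAs and 7 rather than 4 core snoRNP genes higher. The causes of these changes were not tested. Of 7148 alternative values of 35 other named genes, 129 lost a call, 97 gained one and 0 reversed.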
